A study of Homo sapiens with 6 samples.

Results

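PHF10, FUBP1, KHNYN, SLC25A27 and TMEM19 are 5 human genes at which the downstream of 2 main poly(A) sites gained share after depletion of a subunit of cleavage factor Im (CF Im). They were chosen by that change in site share: FUBP1, KHNYN and SLC25A27 by their values after CF Im25 siRNA, and PHF10 and TMEM19 by their values after CF Im68 siRNA. Values from those contrasts are therefore given as a description, with no test. The name distal holds for the choice between the 2 main sites: over all ends of a gene, ends far upstream also took a larger share of PHF10, SLC25A27 and TMEM19 reads after CF Im68 siRNA. All sequenced RNA 3' ends on the strand of the gene were taken in the hg19 windows chr6:170103000-170125000 (minus strand, PHF10), chr1:78409000-78445000 (minus, FUBP1), chr14:24898000-24911500 (plus, KHNYN), chr6:46620000-46649000 (plus, SLC25A27) and chr12:72079000-72099000 (plus, TMEM19). They hold 653 of the 2438055 end positions of the study, 5 windows beside 28114 clusters of poly(A) sites (units) in the genome.

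The study used A-seq, in which poly(A) RNA is fragmented and reverse transcription is primed at the start of the poly(A) tail. Each read is therefore taken to mark a cleavage site, and whether single ends arose in another way was not tested. The levels of the siRNA targets themselves were not analysed here. All 6 libraries came from HEK293, a human embryonic kidney cell line. CF Im25 siRNA, CF Im59 siRNA, no siRNA and scrambled siRNA were prepared by alkaline hydrolysis, and CF Im68 siRNA and a further scrambled siRNA library by RNase I digestion. Cells that received siRNA were harvested 3 days later, and the Im25 and Im59 siRNAs were Ambion products while the Im68 siRNA was a double-stranded oligo from Dharmacon. Each group had 1 library, so no difference below has a replicate check or a p-value, and all intervals are 95% intervals that cover the counting error of reads only. Depth ran from 5351980 reads (scrambled siRNA, RNase I) to 18183644 reads (no siRNA), and 0 reads at a site allow a level of up to 0.281 CPM (reads scaled to a common library total) in the CF Im25 library, 0.237 CPM in the CF Im59 library, 0.231 CPM in the CF Im68 library, 0.165 CPM without siRNA, and 0.310 and 0.561 CPM in the alkaline and RNase I scrambled libraries. Mitochondrial reads were 8.37% of the CF Im68 library against 4.16% with its scrambled siRNA, and 1.07% of the CF Im25 library against 1.91% with its scrambled siRNA, and their part in the results was not tested. Because the CF Im68 siRNA came with its own fragmentation method, its values are given against the RNase I control, and siRNA target and preparation cannot be told apart between the CF Im25 and CF Im68 libraries.

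CF Im binds UGUA motifs in nascent RNA upstream of cleavage sites, CF Im25 making the base contacts and CF Im59 or CF Im68 completing the complex. It is best known for favouring distal sites, so that its loss usually shortens 3' UTRs. A gene can end at alternative sites within 1 last exon, which changes the 3' UTR only, or in different last exons, which also changes the end of the coding sequence. PHF10 is a PHD-finger subunit of the PBAF form of the SWI/SNF chromatin remodeller. FUBP1 is a KH-domain protein that binds single-stranded DNA upstream of MYC and also binds RNA. KHNYN is a KH-like and NYN nuclease-domain protein that works with the antiviral protein ZAP against CpG-rich viral RNA. SLC25A27, also called UCP4, is a mitochondrial carrier of the uncoupling protein family. TMEM19 is a multipass membrane protein of little known function.

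For PHF10 and FUBP1 annotated ends with the spacing of the measured sites were found. No genome of the files' build was used, so GENCODE 29 transcript ends (GRCh38) were compared by their spacing alone, with a tolerance of 25 nt. PHF10 sites lay 3136 nt apart and annotated ends of its transcripts 3123 nt apart, and FUBP1 sites lay 4349 nt apart and annotated ends 4350 nt apart. Among the 6 pairs of annotated ends of PHF10, 2 had such a spacing, of which the closer was used, and 1 of the 10 pairs of FUBP1 did. No pair did for KHNYN, SLC25A27 or TMEM19. In both matched genes the distal end lay outside the last exon of the proximal transcript. PHF10-205, the proximal form, has 9 exons, the last of 3364 nt, and PHF10-201, the distal form, has 12 exons, the last of 184 nt. FUBP1-202, the proximal form, has 20 exons and is protein coding, whereas the 7 FUBP1 transcripts with the distal end are all annotated as processed transcripts and none as protein coding. The last 30 bases before each annotated end are shown because they hold the poly(A) signal AATAAA, here in capitals.
PHF10-205 (proximal): taAATAAAtaagccaaaaattctttttgaa
PHF10-201 (distal): ttcatgccAATAAAagattttttttgcaaa
FUBP1-202 (proximal): tgtgctttacAATAAAtgatatgaaacctc
FUBP1-211 (distal): tcctcAATAAAtgtacattgatgactatta
All 4 ends carried AATAAA, which 37.8% of 53010 annotated ends of protein-coding transcripts have in their last 30 bases. TGTA, the DNA spelling of the CF Im motif, was counted on the transcript strand in the last 100 bases, where overlapping copies count, and a copy can share its last A with the first A of AATAAA. The FUBP1 distal end had 5 copies and its proximal end 2, and the PHF10 distal end had 1 copy and its proximal end 2. Of all annotated ends, 45.3% had at least 1 copy, 15.4% at least 2 and 4.11% at least 3. A match is a sequence of letters and not a measured binding site.

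PHF10 had a lower share at its proximal end and a higher share at its distal end after both CF Im25 and CF Im68 siRNA. The proximal share, which is the percentage of reads at the 2 main sites that lie at the upstream one (170107140 against 170104004), was 31.6% with CF Im25 siRNA, 66.3% with CF Im59 siRNA, 63.5% without siRNA and 61.9% with scrambled siRNA, all of alkaline hydrolysis. RNase I gave 17.4% with CF Im68 siRNA and 69.3% with scrambled siRNA. The CF Im25 and CF Im68 libraries stood apart from the other 4, which lay between 61.9% and 69.3%. After CF Im25 siRNA the distal site was at 32.5 CPM against 9.08 CPM with scrambled siRNA, 3.57-fold (interval 2.82 to 4.57), while the proximal site was at 15.0 CPM with CF Im25 siRNA against 14.8 CPM with scrambled siRNA, 1.02-fold (interval 0.807 to 1.28). Against no siRNA both sites differed, the distal one at 2.15-fold (interval 1.83 to 2.52) and the proximal one at 0.570-fold (interval 0.473 to 0.683), so the like level of the proximal site rests on the scrambled siRNA library. With CF Im68 siRNA the proximal site was at 3.08 CPM against 17.8 CPM with scrambled siRNA, 0.173-fold (interval 0.117 to 0.253), with the distal site at 14.6 CPM with CF Im68 siRNA against 7.85 CPM with scrambled siRNA, 1.86-fold (interval 1.33 to 2.67).

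CF Im68 siRNA also came with further ends inside PHF10, upstream of both main sites. The sites at 170109796, 170109924 and 170107817 held 44, 22 and 23 reads with CF Im68 siRNA, against 1, 0 and 0 reads with scrambled siRNA of RNase I. They lie 2656, 2784 and 677 nt upstream of the proximal site, and the last exon of PHF10-205 is 3364 nt long. With CF Im25 siRNA they held 27, 0 and 14 reads, against 7, 0 and 0 with scrambled siRNA. All ends more than 1 kb upstream of the proximal site, which leaves out 170107817, made up 29.5% of PHF10 reads with CF Im68 siRNA and 9.74% with scrambled siRNA, a difference of 19.7 points (interval 12.5 to 25.8). With CF Im25 siRNA they made up 18.0%, against 11.7% with scrambled siRNA (6.26 points, interval 1.03 to 10.8). An end far upstream at 170116409 went the other way, with 5 reads with CF Im68 siRNA and 11 with scrambled siRNA.

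FUBP1 kept its proximal end as the main one in 5 of 6 libraries and reached equal use of both ends with CF Im25 siRNA. The proximal share (78414090 against 78409741) was 49.8% with CF Im25 siRNA, 79.2% with CF Im59 siRNA, 88.3% without siRNA and 94.3% with scrambled siRNA. RNase I gave 81.7% with CF Im68 siRNA against 94.0% with its scrambled siRNA. Every siRNA against CF Im gave a lower value than the controls of its fragmentation method, with CF Im25 lowest. The proximal end was at 10.4 CPM with CF Im25 siRNA against 61.5 CPM with scrambled siRNA, 0.169-fold (interval 0.137 to 0.208), and the distal end at 10.5 CPM with CF Im25 siRNA against 3.72 CPM with scrambled siRNA, 2.83-fold (interval 1.93 to 4.24). The difference at the proximal end was the larger in reads, and all reads of the gene were at 26.7 CPM with CF Im25 siRNA against 70.8 CPM with scrambled siRNA. With CF Im68 siRNA the proximal end was at 17.5 CPM, against 40.7 CPM with scrambled siRNA, 0.429-fold (interval 0.354 to 0.519), and the interval for the distal end included 1 (3.92 CPM with CF Im68 siRNA against 2.62 CPM with scrambled siRNA, 1.50-fold, interval 0.818 to 2.93). At the distal end 94.6% of the reads with CF Im25 siRNA lay at 1 nucleotide, against 72.2% of 36 reads with scrambled siRNA. The value was 92.5% without siRNA and 81.9% with CF Im59 siRNA. Without the most used nucleotide of each end the change after CF Im25 siRNA was -8.50 points (interval -20.4 to -1.53), and with it -44.5 points (interval -51.2 to -37.7), so the size of the FUBP1 change rests on those nucleotides. The FUBP1 change after CF Im68 siRNA was -12.3 points (interval -17.8 to -6.69) and -3.96 points (interval -9.19 to 1.38) with a site radius of 10 nt, since the most used nucleotide of the distal site was 78409765 there and 78409741 with scrambled siRNA. A further FUBP1 site at 78414343, 253 nt upstream of the proximal site, held 63 reads with CF Im68 siRNA and 61 with scrambled siRNA in the RNase I libraries, and 0 reads in each of the 4 alkaline libraries. The site at 78423522, far upstream, held 5.61% of FUBP1 reads with CF Im25 siRNA and 1.46% with scrambled siRNA. Its level was 1.50 CPM with CF Im25 siRNA against 1.03 CPM with scrambled siRNA, 1.45-fold with an interval that included 1 (0.621 to 3.59), while all reads of FUBP1 were 0.378-fold. At the 78414343 site 92.1% and 98.4% of the reads lay at 1 nucleotide with CF Im68 and scrambled siRNA.

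KHNYN had the higher share at its distal site with CF Im25 and with CF Im59 siRNA alike. Its proximal share (24907610 against 24910546) was 33.8% with CF Im25 siRNA, 35.6% with CF Im59 siRNA, 68.4% without siRNA and 78.8% with scrambled siRNA. The CF Im25 and CF Im59 values lay side by side and below both alkaline controls, and their direct difference was -1.87 points (interval -12.0 to 8.43). In the RNase I libraries the share was 11.9% with CF Im68 siRNA and 6.63% with scrambled siRNA, a difference of 5.26 points (interval -0.474 to 10.2). The scrambled siRNA libraries thus differed by -72.2 points (RNase I minus alkaline, interval -78.2 to -64.2), more than any siRNA library from its control at this gene. Site levels differed by like factors after both siRNAs: the proximal site was 0.317-fold (interval 0.227 to 0.438) with CF Im25 siRNA and 0.319-fold (interval 0.233 to 0.432) with CF Im59 siRNA, and the distal site 2.32-fold (interval 1.59 to 3.43) with CF Im25 siRNA and 2.15-fold (interval 1.48 to 3.16) with CF Im59 siRNA. Just upstream of the distal site, the site at 24910517 held 30 reads with CF Im68 siRNA and 15 with scrambled siRNA of RNase I, against 2, 0, 0 and 0 reads with CF Im25, CF Im59, no and scrambled siRNA of alkaline hydrolysis. The site at 24907540, just upstream of the proximal one, held 0, 1 and 2 reads with CF Im25 siRNA, CF Im59 siRNA and no siRNA, against 12 with scrambled siRNA of alkaline hydrolysis, which stood alone.

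SLC25A27 had the highest ratio at a distal site among these genes after CF Im25 siRNA. The proximal share (46645926 against 46648068) was 43.5% with CF Im25 siRNA, 89.2% with CF Im59 siRNA, 92.2% without siRNA and 94.3% with scrambled siRNA. The other 3 alkaline libraries lay between 89.2% and 94.3%, and the CF Im25 library stood alone. Its distal site had 140 reads with CF Im25 siRNA and 10 with scrambled siRNA, which is 13.1 CPM against 1.03 CPM (12.7-fold, interval 6.72 to 27.1), and the proximal site was 0.591-fold (interval 0.460 to 0.758). Against the deeper no siRNA library the distal site was 6.28-fold (interval 4.36 to 9.25).

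With CF Im68 siRNA, SLC25A27 had a lower level at its proximal site and no higher level at the distal one. The proximal site was at 1.15 CPM with CF Im68 siRNA against 13.6 CPM with scrambled siRNA, 0.0846-fold (interval 0.0451 to 0.149). The distal site was at 2.54 CPM with CF Im68 siRNA against 2.99 CPM with scrambled siRNA, 0.849-fold (interval 0.454 to 1.65). The proximal share was 31.3% with CF Im68 siRNA against 82.0% with scrambled siRNA, but the 48 reads at both sites in the CF Im68 library fell short of the minimum of 50, so no call was made. A further site at 46644741, 1185 nt upstream of the proximal one, held 43.5% of the reads of the gene with CF Im68 siRNA and 10.0% with scrambled siRNA (33.5 points, interval 23.0 to 43.0), against 1.98% to 3.03% in the alkaline libraries. The site at 46645898, directly beside the proximal one, held 4.95% to 8.75% of the reads in all 6 libraries. In level, ends more than 1 kb upstream of the proximal site were at 5.77 CPM with CF Im68 siRNA against 3.74 CPM with scrambled siRNA, 1.54-fold with an interval that included 1 (0.933 to 2.67). The distal site and the upstream ends thus both took a larger share of SLC25A27 reads with CF Im68 siRNA, beside a proximal site at a much lower level.

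TMEM19 had a lower share at its proximal site after both CF Im25 and CF Im68 siRNA. Its proximal share (72096968 against 72097836, 868 nt apart) was 54.6% with CF Im25 siRNA, 81.3% with CF Im59 siRNA, 85.3% without siRNA and 84.0% with scrambled siRNA. RNase I gave 8.44% with CF Im68 siRNA against 55.4% with scrambled siRNA. CF Im25 and CF Im68 siRNA each gave the lowest value of their fragmentation method, and the scrambled libraries themselves differed by -28.6 points (RNase I minus alkaline, interval -37.4 to -20.0). After CF Im25 siRNA the proximal site was at 16.7 CPM against 86.1 CPM with scrambled siRNA, 0.194-fold (interval 0.164 to 0.228), and the distal site was at 13.9 CPM with CF Im25 siRNA against 16.4 CPM with scrambled siRNA, 0.846-fold (interval 0.672 to 1.07). Against no siRNA the direction at the distal site turned, to 1.34-fold (interval 1.08 to 1.67), while the proximal site stayed lower, at 0.277-fold (interval 0.235 to 0.325). After CF Im68 siRNA the proximal site was 0.149-fold (interval 0.0911 to 0.236) and the distal site 2.00-fold (interval 1.50 to 2.70). The TMEM19 change was -46.9 points (interval -55.6 to -37.6) after CF Im68 siRNA. It was -13.4 points (interval -24.5 to -6.44), which is no longer called, without the most used nucleotide of each site in the pooled libraries. At the proximal site that nucleotide held 96.2% of the reads with CF Im68 siRNA and 88.9% with scrambled siRNA. At the distal site it was 72097836, while 72097816 led in both RNase I libraries, so the sites lost unlike shares of their reads.

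The upstream ends of TMEM19 had a higher share after both siRNAs, but a higher level after CF Im68 siRNA and not after CF Im25 siRNA. Ends more than 1 kb upstream of the proximal site were 43.6% of its reads with CF Im68 siRNA and 16.7% with scrambled siRNA (26.9 points, interval 19.1 to 33.4), and 24.4% with CF Im25 siRNA against 13.7% with scrambled siRNA (10.6 points, interval 6.28 to 15.3). In level they were at 18.8 CPM with CF Im68 siRNA against 4.86 CPM with scrambled siRNA, 3.86-fold (interval 2.57 to 6.04). With CF Im25 siRNA they were at 9.94 CPM against 16.4 CPM with scrambled siRNA, 0.606-fold (interval 0.469 to 0.780), and 1.15-fold (interval 0.892 to 1.48) against no siRNA. The site at 72095148 held 95 reads with CF Im68 siRNA and 5 with its scrambled siRNA, 1 with CF Im59 siRNA, and 0 in the CF Im25, no siRNA and alkaline scrambled libraries. Its 95 reads were spread over 10 positions. The site at 72094531 held 48 reads with CF Im68 siRNA against 8 with scrambled siRNA, and 27 with CF Im25 siRNA against 7 with scrambled siRNA.

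**Figure D1:**
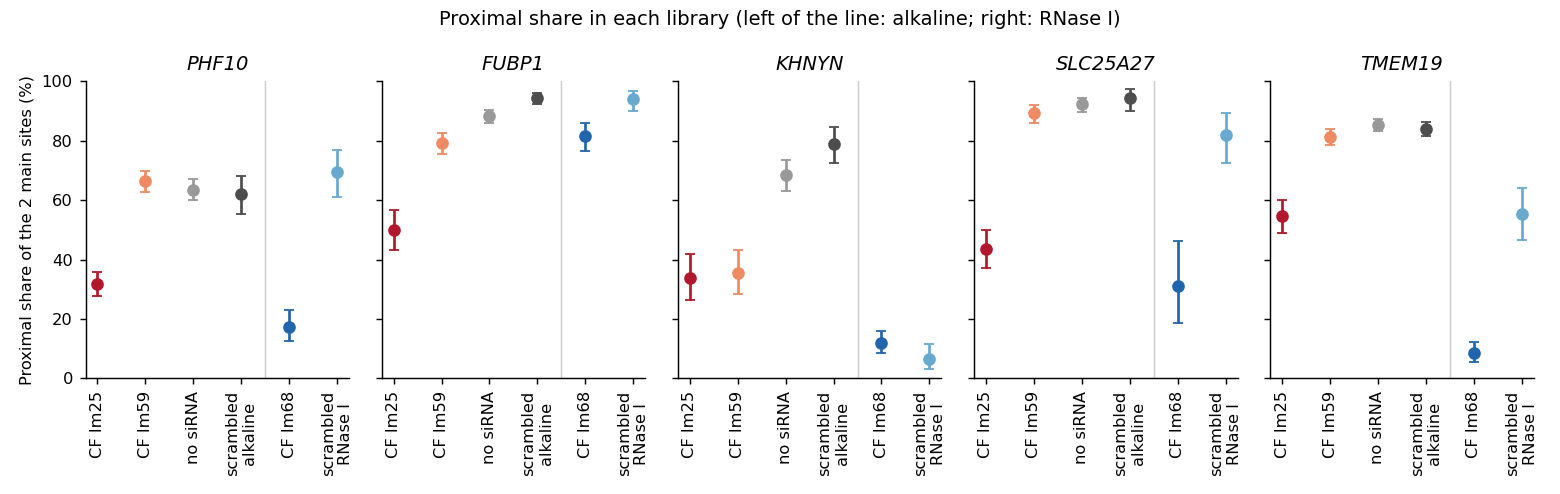
Proximal share of the 2 main sites (vertical axis, %) in each of the 6 libraries (horizontal axis) for the 5 genes, with exact 95% binomial intervals. CF Im25 siRNA lies below both alkaline controls at every gene, from 31.6% to 54.6%, and KHNYN lies at 11.9% and 6.63% in both RNase I libraries.

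Counted together after CF Im25 siRNA, 5 of the 5 genes were called distal, which means a proximal share lower by at least 20 points, at least 50 reads in both libraries and a Newcombe interval of the difference that excludes 0. Over all 6650 pairs of sites tested, 2.80% were called distal, and since this contrast helped to choose the genes, nothing is read from the comparison. Their median change was -44.5 points, beside 4.15 points for all pairs. Against no siRNA, a comparison with the same CF Im25 library, the changes lay between -48.6 and -30.7 points and 5 of 5 were called, where 1.97% of all pairs were. With CF Im68 siRNA 2 of the 4 genes with enough reads were called distal, PHF10 and TMEM19, where 1.88% of all pairs were. Both were chosen by their values after CF Im68 siRNA, so nothing is read from that comparison either. KHNYN could not be called distal here. Its proximal share was 6.63% with scrambled siRNA of RNase I, which leaves no room for a fall of 20 points. Among all 5 genes, SLC25A27 with its 48 reads included, changes then lay between -52.0 and 5.26 points, with a median of -46.9 points. The median was 5.52 points for all pairs, which had at least 50 reads in both libraries, so the sets differ.

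With CF Im59 siRNA the rule of size called KHNYN distal, 1 of 5 genes, where 4.75% of all pairs were, with a median change of -5.09 points for the genes and -1.23 points for all pairs. FUBP1 had a change of -15.1 points (interval -19.2 to -11.2), under the 20 points of the rule, and -9.14 points (interval -13.4 to -5.13) against no siRNA. KHNYN was again the 1 gene called against no siRNA (-32.7 points, interval -41.1 to -23.6), where 2.10% of all pairs were. For PHF10 the change was 4.44 points (interval -2.52 to 11.7), for TMEM19 -2.71 points (interval -6.08 to 0.663) and for SLC25A27 -5.09 points (interval -9.18 to 0.0386). Set directly against CF Im59 siRNA, CF Im25 siRNA gave changes between -45.7 and -26.7 points at PHF10, TMEM19, FUBP1 and SLC25A27, 4 of 5 genes called, where 1.03% of all pairs were. The CF Im25 library is the one that chose FUBP1, KHNYN and SLC25A27, so nothing is read from that count either.

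Without any targeting siRNA, 0 of 5 genes were called distal for no siRNA against scrambled siRNA, where 2.43% of all pairs were. KHNYN and FUBP1 differed most there, by -10.5 points (interval -17.9 to -2.43) and -6.00 points (interval -8.73 to -3.16), in the direction of the knockdowns, so the scrambled siRNA library lay at the proximal end of the controls at both genes. That library was also the control in the CF Im25 contrast that chose both genes. The part of that choice in the difference was not tested. Between the scrambled siRNA libraries, RNase I against alkaline, 2 of 5 genes (KHNYN and TMEM19) were called distal, where 20.7% of all pairs were. Fragmentation and any other difference between these 2 preparations cannot be told apart.

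**Figure D2:**
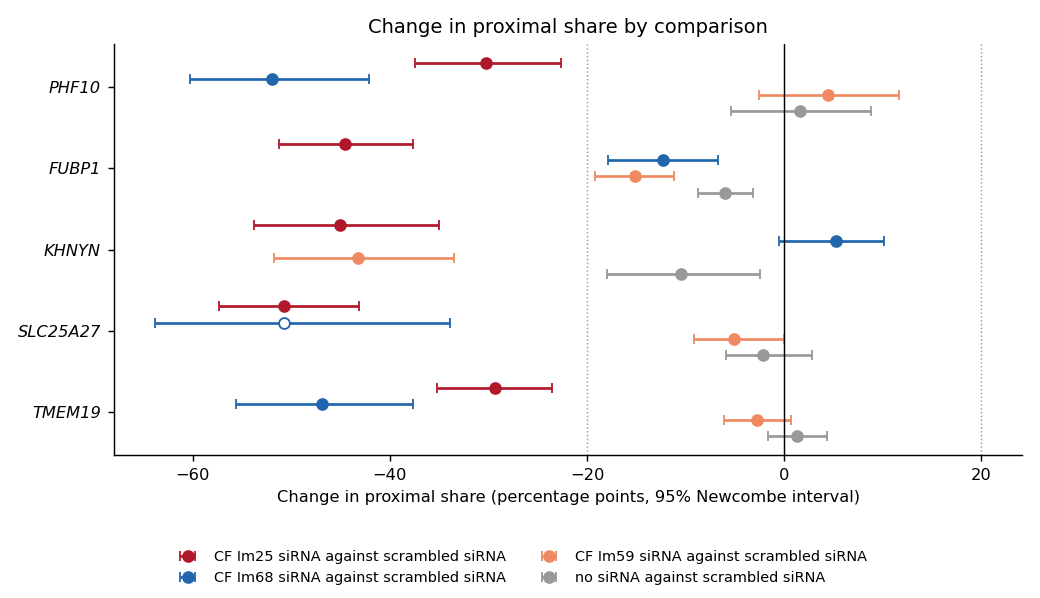
Change in proximal share (horizontal axis, percentage points) for each gene (rows) and comparison (colours), with 95% Newcombe intervals; dotted lines mark 20 points, and the open circle marks SLC25A27 after CF Im68 siRNA, with 48 reads. CF Im25 siRNA lies below -20 points at all 5 genes, CF Im59 siRNA at KHNYN alone.

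A lower level of the proximal site and a higher level of the distal site did not always come together. After CF Im25 siRNA the interval lay below 1 for the proximal site of TMEM19, FUBP1, KHNYN and SLC25A27 and above 1 for the distal site of PHF10, FUBP1, KHNYN and SLC25A27, 4 of 5 genes each, where 21.3% and 20.6% of all pairs were so. Both held at 3 of 5 genes, where 2.29% of all pairs showed both. For CF Im68 siRNA 4 of 5 genes had the lower proximal site (22.6% of all pairs), 2 of 5 the higher distal site (10.7%), and PHF10 and TMEM19 had both, 2 of 5 genes where 2.07% of all pairs did. The 4 include SLC25A27 with its 48 reads, whereas all pairs had at least 50 reads in both libraries. For CF Im59 siRNA the counts were 3 of 5 (33.2% of all pairs), 4 of 5 (25.9%) and, for both at FUBP1 and KHNYN, 2 of 5 (4.74%). The higher distal sites include PHF10 and SLC25A27, whose proximal sites were also higher after CF Im59 siRNA, at 2.61-fold and 1.87-fold. Their total reads were 2.36-fold and 1.98-fold, so a higher distal level there is not a larger distal share. Against no siRNA in place of scrambled siRNA, 5 of 5 genes showed both after CF Im25 siRNA, where 1.87% of all pairs did. These site levels come from the reads that chose the genes and are given as description.

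**Figure D3:**
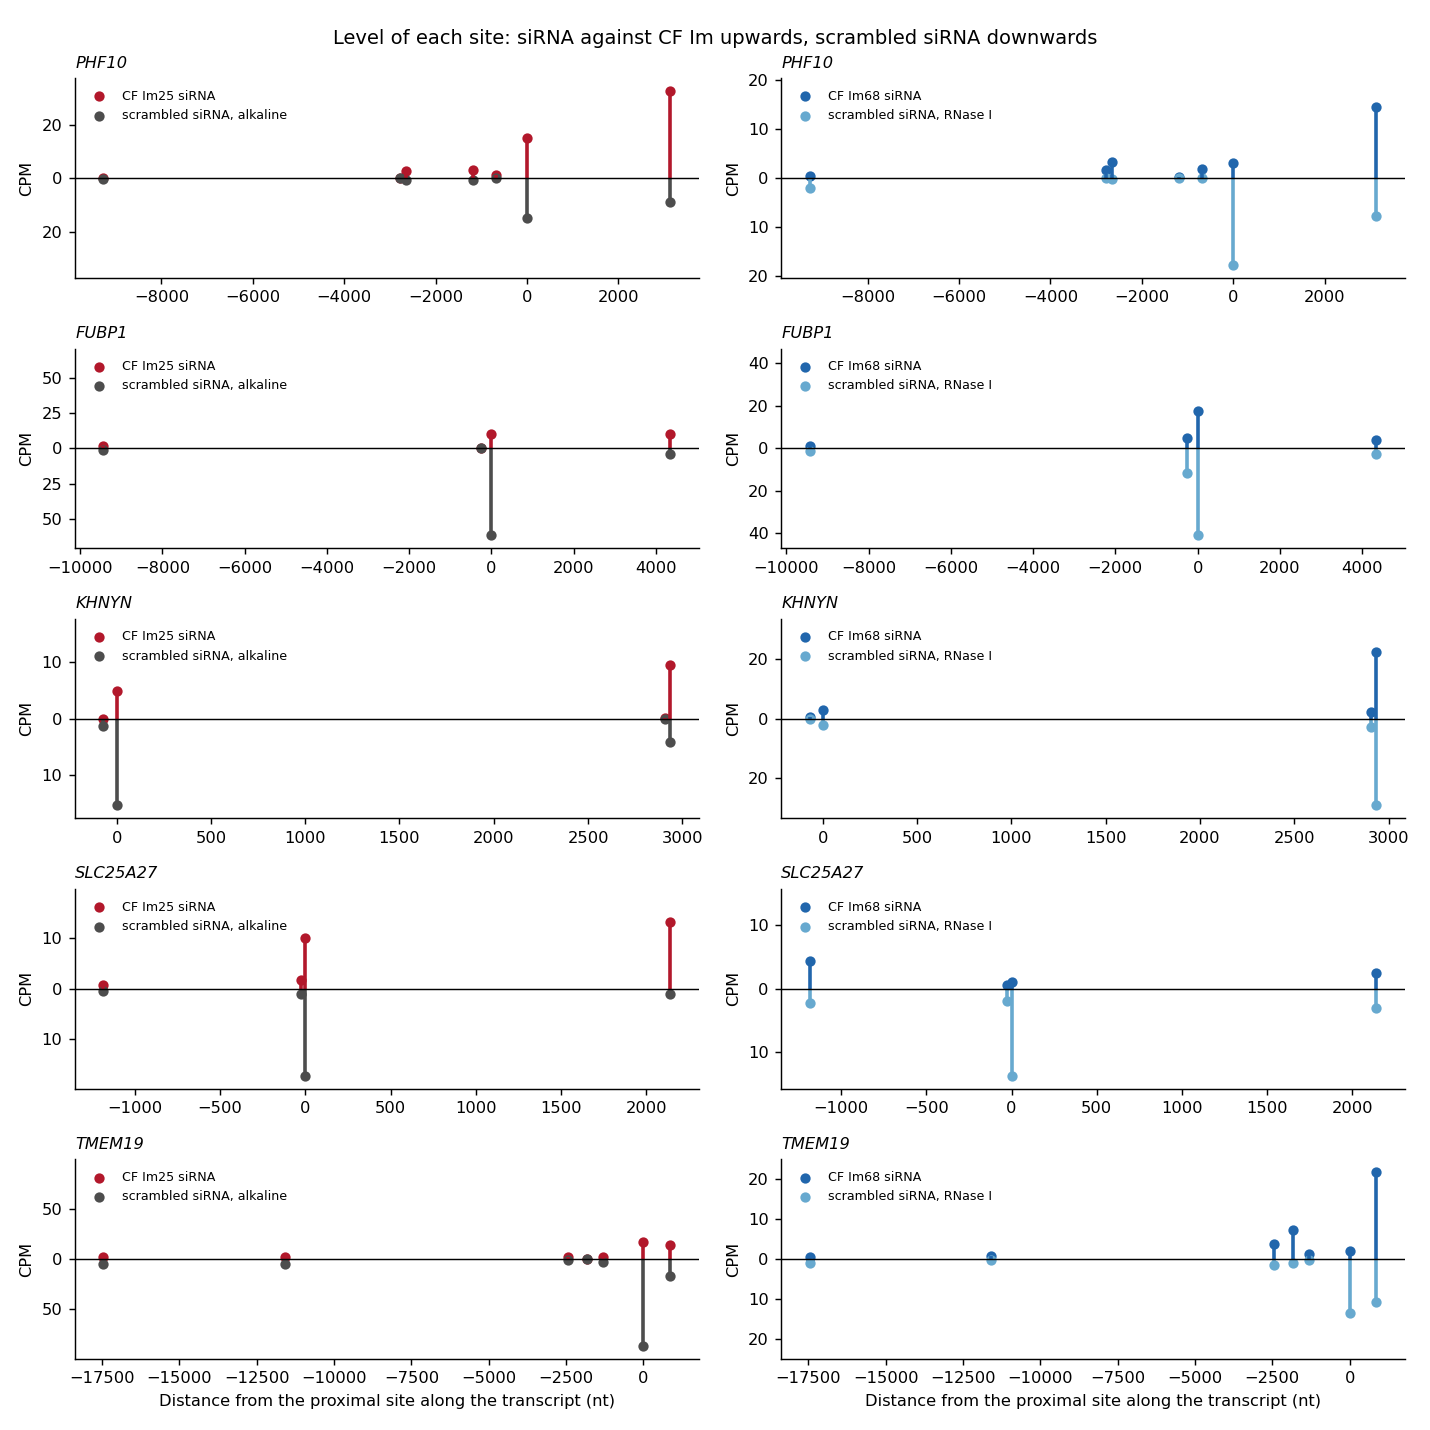
Level of each site with a mean of at least 1 CPM or at least 5% of the gene's reads in 1 library (vertical axis, CPM) by its distance from the proximal site along the transcript (horizontal axis, nt), with the siRNA against CF Im upwards and its scrambled siRNA downwards. The distal site of SLC25A27 stands at 13.1 CPM with CF Im25 siRNA, and upstream sites of PHF10, TMEM19 and SLC25A27 stand above their controls with CF Im68 siRNA.

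Over all ends of a gene, the distal site mostly took a larger share after CF Im25 and CF Im68 siRNA. The mean end position was rarely clear of its error after these siRNAs. The distal site's share of all reads of the gene was higher after CF Im25 siRNA at each of the 5 genes, by 19.9 points (interval 12.9 to 26.5) at PHF10, 20.3 points (interval 15.5 to 25.2) at TMEM19, 34.1 points (interval 28.2 to 40.0) at FUBP1, 43.3 points (interval 33.8 to 51.7) at KHNYN and 39.9 points (interval 33.2 to 45.9) at SLC25A27. After CF Im68 siRNA it was higher by 24.1 points (interval 15.0 to 32.3) at PHF10, 13.2 points (interval 4.35 to 21.5) at TMEM19, 8.28 points (interval 4.37 to 12.2) at FUBP1 and 11.9 points (interval 2.03 to 21.3) at SLC25A27, and -4.90 points (interval -11.6 to 2.43) apart at KHNYN. The mean position of all ends, weighted by reads, lay farther downstream at 4 of 5 genes with CF Im25 siRNA. With CF Im68 siRNA it did at 1 of 5 (PHF10). Genome-wide units were built from sites of at least 1 mean CPM, and among the tested ones 30.7% and 24.4% did so. From such sites alone, 4 genes did with CF Im25 siRNA and 2 (PHF10 and FUBP1) with CF Im68 siRNA. By all ends, the count was 5 of 5 genes with CF Im59 siRNA (61.0% of the tested units) and 4 of 5 without siRNA (62.4%). That background was itself high. The mean end differed by 1427 ± 157 nt at KHNYN and 1133 ± 387 nt at SLC25A27 after CF Im25 siRNA (± SE from the spread of reads). At the other 3 genes after CF Im25 siRNA, and at all 5 after CF Im68 siRNA, it was within 2 SE of 0. An example is -807 ± 649 nt at SLC25A27 after CF Im68 siRNA. TMEM19 was the gene with an upstream change after CF Im25 siRNA, -293 ± 257 nt. Against no siRNA that change was -667 ± 244 nt, more than 2 SE upstream. With CF Im59 siRNA the mean end lay more than 2 SE downstream at KHNYN (1297 ± 168 nt), FUBP1 (550 ± 202 nt) and TMEM19 (404 ± 162 nt). Without siRNA it did at KHNYN (375 ± 138 nt) and TMEM19 (374 ± 154 nt). The remaining genes of both comparisons were within 2 SE of 0. Against no siRNA, CF Im59 siRNA gave 922 ± 152 nt at KHNYN and 397 ± 163 nt at PHF10. It gave 381 ± 200 nt at FUBP1, 432 ± 238 nt at SLC25A27 and 29.9 ± 141 nt at TMEM19, each within 2 SE. The FUBP1 and TMEM19 changes beyond 2 SE after CF Im59 siRNA thus rest on the scrambled siRNA library.

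**Figure D4:**
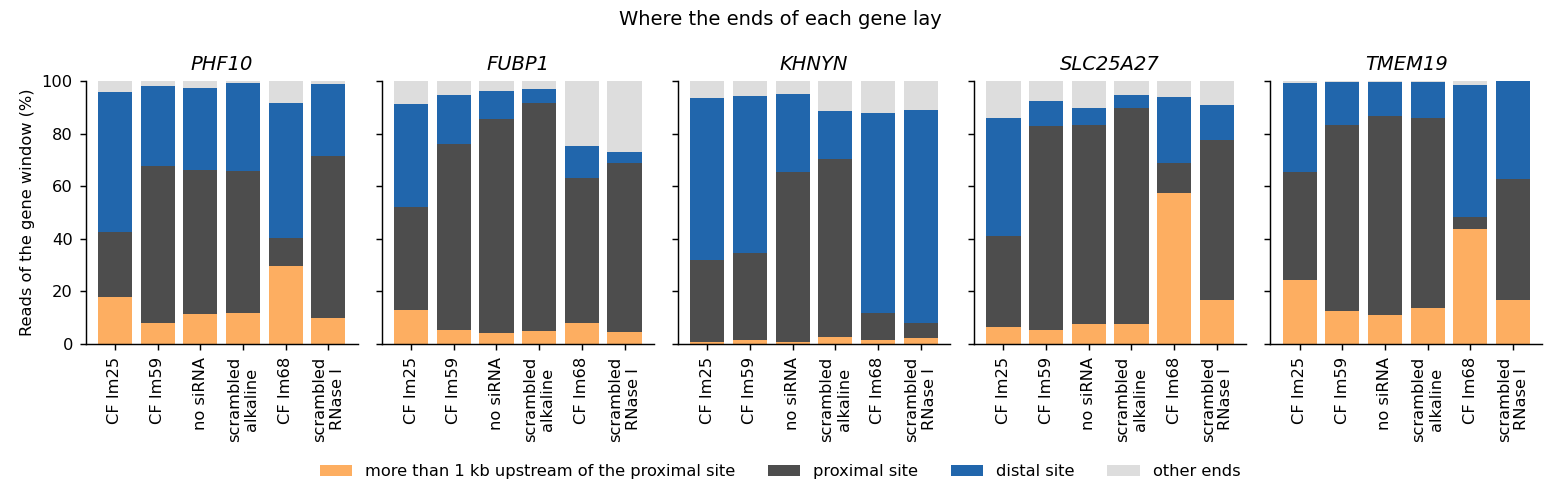
Percentage of all reads of each gene (vertical axis) by class of end in the 6 libraries (horizontal axis): more than 1 kb upstream of the proximal site, proximal site, distal site, and other ends. With CF Im68 siRNA the upstream class reaches 57.3% at SLC25A27, 43.6% at TMEM19 and 29.5% at PHF10, against 16.7%, 16.7% and 9.74% with scrambled siRNA.

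Total reads of the genes differed in both directions. PHF10 was at 61.0 CPM with CF Im25 siRNA, 64.3 CPM with CF Im59 siRNA and 48.3 CPM without siRNA, against 27.2 CPM with scrambled siRNA. That made 1 of 5 genes higher by at least 2-fold with CF Im25 siRNA and 1 of 5 with CF Im59 siRNA, where 13.6% and 9.09% of all units were, but 0 genes were so against no siRNA (9.80% and 4.97% of all units). TMEM19 (40.8 CPM with CF Im25 siRNA against 119 CPM with scrambled siRNA, 0.342-fold, interval 0.305 to 0.382) and FUBP1 (0.378-fold, interval 0.328 to 0.434) were lower with CF Im25 siRNA, 2 of 5 genes where 11.7% of all units were. Against no siRNA they were 0.513-fold (interval 0.460 to 0.572) and 0.489-fold (interval 0.427 to 0.558), and FUBP1 was the 1 gene called, where 10.4% of all units were. With CF Im59 siRNA 0 genes were lower, where 10.5% of all units were. With CF Im68 siRNA 0 genes were higher, where 10.4% of all units were. FUBP1 (31.6 CPM with CF Im68 siRNA against 63.3 CPM with scrambled siRNA, 0.499-fold, interval 0.431 to 0.578) and SLC25A27 (10.1 CPM with CF Im68 siRNA against 22.4 CPM with scrambled siRNA, 0.450-fold, interval 0.348 to 0.581) were lower, 2 of 5 genes where 7.75% of all units were, but 0 genes were with TMM or median of ratios scaling, which moved all units by 0.24 and 0.22 on the log2 scale. KHNYN was not called in either direction, with 15.6, 14.9 and 18.2 CPM in the CF Im25, CF Im59 and no siRNA libraries and 22.7 CPM with scrambled siRNA. Fewer cells that express a gene and less RNA per cell cannot be told apart in such libraries.

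The exact cleavage position within a site was often the same across siRNAs and differed between fragmentation methods at some sites. The most used nucleotide of the distal KHNYN site was 24910546 in all 4 alkaline libraries and 24910536 in both RNase I libraries, and that of the distal TMEM19 site was 72097836 in all 4 alkaline libraries and 72097816 in both RNase I libraries. At the proximal PHF10 site, 170107132 led with CF Im25 siRNA, CF Im59 siRNA and no siRNA, and 170107140 led in both scrambled siRNA libraries and with CF Im68 siRNA. The proximal site of TMEM19 had 95.5% to 96.9% of its reads at 1 nucleotide in the alkaline libraries.

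In features other than the change itself, the genes varied in the spacing of their sites and had a high starting share with scrambled siRNA of alkaline hydrolysis. Sites lay 868 nt apart at TMEM19, 2142 nt at SLC25A27, 2936 nt at KHNYN, 3136 nt at PHF10 and 4349 nt at FUBP1, where all 8982 pairs of the genome had a median of 1133 nt (interquartile range 290 to 2572 nt). With scrambled siRNA of alkaline hydrolysis their proximal shares were 61.9% to 94.3%, where all pairs had a median of 39.1%, and a difference as large as those that chose the genes needs a high start. With scrambled siRNA of RNase I they ran from 6.63% at KHNYN and 55.4% at TMEM19 to 94.0% at FUBP1. All pairs had a median of 38.5% there.

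For each gene, the pair of sites elsewhere with the most similar proximal share over the 6 libraries was sought among 2991 pairs with at least 100 reads in every library. FUBP1 was most like the chr12 plus strand sites at 98929406 and 98931484, with a root mean square difference of 7.76 points, and shares there of 53.6% with CF Im25 siRNA and 97.4% with scrambled siRNA. KHNYN was most like 90171419 and 90171229 of chr15, minus strand (9.46 points), TMEM19 like 9302718 and 9302204 of chr11, minus strand (11.5 points) and PHF10 like 22095971 and 22098838 of chr16, plus strand (11.8 points). SLC25A27 had no close match, with 16.3 points to 124691026 and 124690417 of chr10, minus strand. The KHNYN match had shares of 42.6% with CF Im25 siRNA, 37.7% with CF Im59 siRNA, 71.9% without siRNA and 61.2% with scrambled siRNA, and 1.66% and 1.51% in the RNase I libraries with CF Im68 and scrambled siRNA. The match was made on these same 6 shares.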

How the data were processed

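A-seq reads of 6 HEK293 libraries were analysed from the deposited counts, whole and unscaled numbers of reads per 3' end position and strand; the build was hg19 or GRCh37 per the submitters' processing notes, and how reads were aligned and filtered is not given in the sources used here. Libraries held 5351980 to 18183644 reads, and PCR copies are not independent, so intervals can be too narrow. Ends within 25 nt of the highest remaining position of the equally weighted pool were joined into a site. CPM uses the library total. Genome-wide units join sites of at least 1 mean CPM at gaps of at most 5 kb, and their 2 most used sites, each with at least 5% of the unit, gave the background under the same rules. Intervals are exact binomial for shares, Newcombe for differences, and exact given the summed counts for ratios. Alternatives were other radii, read minimums, denominators, scalings and control libraries, thinning, and leaving out each site's most used nucleotide. That nucleotide was the most used in the pool and did not lead in every library. All 5 genes are named with every site that reached 5% of the gene's reads in a library. Python 3.11.15, numpy 2.4.6, scipy 1.17.1, pandas 2.3.3 and edgeR 4.0.16 (TMM factors only, R 4.3.3) were used, and the call rules were tested on simulated data. The genes, windows and lists were chosen with earlier results of these data known. Lists of related genes were not analysed here, since no annotation of the files' build was used.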

Additional observations from a re-analysis of the deposited data

How the results depend on the processing

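Each group had 1 library, so depth limits every value and no leave-one-out was possible. No paired analysis was possible because no group had a second library. Against 5, 2, 1 and 0 genes called distal after CF Im25, CF Im68, CF Im59 and no siRNA, most alternatives gave the same counts. After CF Im68 siRNA 3 genes were called with a radius of 50 nt, all reads of the gene as denominator, a minimum of 20 reads, a rule of 10 points or the alkaline scrambled siRNA. Beside PHF10 and TMEM19 these were FUBP1 with 10 points, KHNYN against alkaline scrambled siRNA and SLC25A27 with the other settings listed. The KHNYN change there was -66.9 points, where the scrambled siRNA libraries alone differed by -72.2 points (RNase I minus alkaline). Without the most used nucleotide of each site, 3 genes (PHF10, TMEM19 and KHNYN) were called after CF Im25 siRNA and 1 (PHF10) after CF Im68 siRNA, where fewer reads remain. A rule of 10 points gave 2 genes after CF Im59 siRNA (FUBP1 and KHNYN) and 1 for no siRNA (KHNYN). The median change after CF Im25 siRNA (-44.5 points) was -36.4 with all reads of the gene as denominator, -25.3 without the most used nucleotide and -34.6 against no siRNA. After CF Im68 siRNA (-46.9 points) it was -15.8 without the most used nucleotide, -35.9 with libraries thinned to 5351980 reads and -63.1 against the alkaline scrambled siRNA. The FUBP1 change for no siRNA turned to 1.27 points without the most used nucleotide. With a site radius of 10 nt the FUBP1 change after CF Im68 siRNA was -3.96 points. The mean end lay downstream after CF Im68 siRNA at 2 genes with sites of at least 1 CPM alone and at 3 against alkaline scrambled siRNA.

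Against no siRNA, 0 genes had higher totals after CF Im25 or CF Im59 siRNA and 1 (FUBP1) a lower one after CF Im25 siRNA. With TMM or median of ratios scaling 2 genes (PHF10 and SLC25A27) were higher after CF Im59 siRNA and 0 were lower after CF Im68 siRNA, and thinning left 1 lower (SLC25A27). Of the log2 ratios of totals, 4 turned: SLC25A27 after CF Im25 siRNA (-0.16 against no siRNA), TMEM19 after CF Im59 siRNA (0.12 against no siRNA), and TMEM19 and KHNYN after CF Im68 siRNA (-1.47 and 0.36 against alkaline scrambled siRNA). Site levels were recomputed under alternatives chosen after seeing the data. Among those whose interval had excluded 1, 2 turned: the TMEM19 proximal site after CF Im59 siRNA was 1.02-fold against no siRNA, and the KHNYN distal site after CF Im68 siRNA 5.39-fold against alkaline scrambled siRNA. With another control library, some whose interval had included 1 also changed side: against no siRNA the PHF10 proximal site (0.570-fold) and the TMEM19 distal site (1.34-fold) after CF Im25 siRNA and the TMEM19 distal site after CF Im59 siRNA (1.36-fold), and, after CF Im68 siRNA, the KHNYN proximal (0.195-fold) and SLC25A27 distal site (2.46-fold) against alkaline scrambled siRNA. Where no construction of the alternative shows it, the cause was not tested.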
